A study of Caenorhabditis elegans with 4 samples.

Results

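Binding sites of NHR-11 on chromosome II were followed through 3 deposited peak lists from L3 larvae of Caenorhabditis elegans, by taking every peak whose chromosome column reads II. Chromosome II contributed 290 of the 2197 peaks of ChIP replicate 1, 272 of the 1939 peaks of ChIP replicate 2 and 838 of the 7089 peaks of the series list. Replicate peaks that overlapped by at least 1 bp formed 170 shared regions on II, of 1212 on the 6 chromosomes. The remaining peaks were kept as separate layers, with 120 called in replicate 1 alone, 101 in replicate 2 alone and 487 in the series list alone.

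NHR-11 is a nuclear hormone receptor. Members of this family are transcription factors that hold a zinc-finger DNA-binding domain and, in most cases, a ligand-binding domain, and the nematode genome encodes far more of them than vertebrate genomes do. Chromatin immunoprecipitation followed by sequencing (ChIP-seq) recovers the DNA crosslinked to a tagged protein, and a peak caller lists the stretches where the recovered DNA exceeds a background. Worm chromosomes have no single centromere. On the autosomes, of which II is one, the arms recombine often and are rich in repeats, while the central part recombines rarely and holds most of the highly expressed and conserved genes.

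The animals were hermaphrodites of strain OP305, which carry the allele unc119(ed3) and the transgene wgIs305, written in the labels as nhr-11::TY1 EGFP FLAG;unc119. Both ChIP and both input libraries share that genotype and the L3 stage. The tagged receptor thus comes from a bombarded transgene, the antibody was raised against GFP, and nothing in the genotype alters the endogenous nhr-11 gene. Whole worms were grown at 20 °C and fixed with 2% formaldehyde, so the peaks do not tell which cells were bound. In a RefSeq name table of another genome build, nhr-11 itself lies on chromosome IV, not on II. The labels do not say whether replicates 1 and 2 came from separate cultures, so differences between them may be technical.

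Each peak carries 1 value from the authors' PeakSeq output, a p-value or q-value (which of them is not stated), and low values mark strong peaks. All coordinates are on WormBase WS220. No annotation or sequence of that build was used here, so the regions are given by position and no gene is named for them. Read counts do not accompany the lists, and the depth behind each peak is unknown. Intervals below are exact 95% binomial intervals that treat neighbouring peaks as independent and cover counting error alone.

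On chromosome II most replicate peaks had a partner in the other replicate. Of the 290 replicate 1 peaks, 170 (58.6%, interval 52.7 to 64.4%) overlapped a replicate 2 peak, where the 6 chromosomes together gave 55.3%. In the opposite direction 171 of 272 (62.9%, 56.8 to 68.6%) were shared, where all chromosomes together also gave 62.9%. Both shares on II therefore lay near the genome-wide value. Chromosome III, which held a like number of replicate peaks, had shares of 63.3% (57.5 to 68.9%) and 64.5% (58.7 to 70.1%), with intervals that overlap those of II.

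Shares on II were high for strong peaks and low for weak ones, as elsewhere. Each whole list was divided by value into 4 parts of equal size. Replicate 1 peaks of II in the strongest part were shared in 73 of 76 cases (96.1%, 88.9 to 99.2%), and in the weakest part in 25 of 82 (30.5%, 20.8 to 41.6%). For replicate 2 the strongest part gave 68 of 70 (97.1%, 90.1 to 99.7%) and the weakest 22 of 63 (34.9%, 23.3 to 48.0%). In the 2 parts between, the shares on II were 67.9% and 44.7% for replicate 1 and 66.2% and 48.4% for replicate 2. At each level of strength the interval of II overlapped that of the other 5 chromosomes, as the plot of sharing by strength shows.

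**Figure D1:**
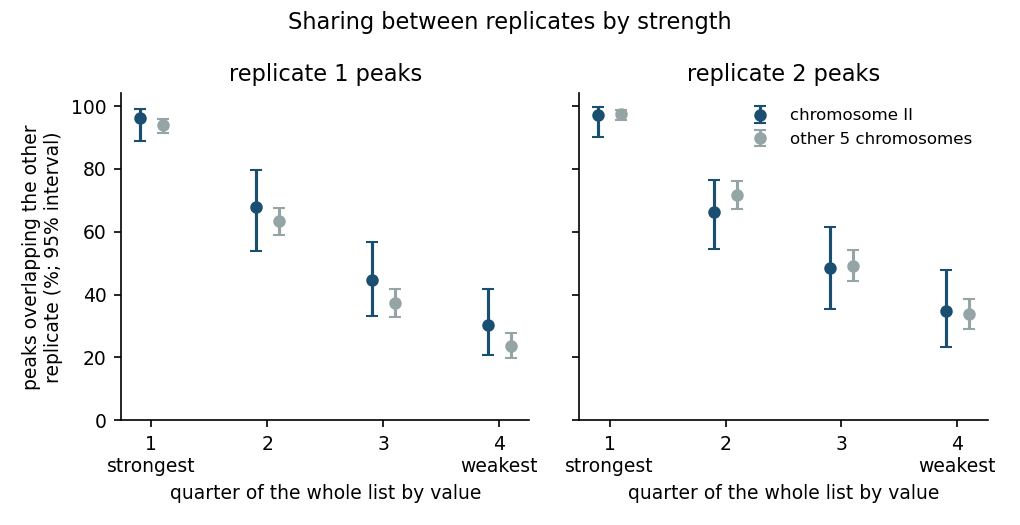
Percent of peaks that overlapped a peak of the other replicate (vertical axis, %) for 4 equal parts of each whole list ordered by value, on chromosome II (dark) and on the other 5 chromosomes (grey). Bars are exact 95% binomial intervals. In replicate 1 the share on II went from 96.1% in the strongest part to 30.5% in the weakest, and every interval of II overlapped its grey neighbour.

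The 170 shared regions were 112 to 6168 bp wide, with a median of 374.5 bp and quartiles of 300 and 547 bp, and 12 were wider than 1000 bp. Regions of the other 5 chromosomes had a median of 381.5 bp. Nearly all regions on II, 169 of 170, joined 1 peak of each replicate. In these pairs the peak centres lay a median of 26 bp apart, the starts 37 bp and the ends 33 bp, and 119 pairs had centres within 50 bp. The largest distance between centres was 639 bp. The replicate 2 peak was the wider one in 89 pairs and the replicate 1 peak in 76.

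Regions of II that were strong in replicate 1 tended to be strong in replicate 2. The significance values had a Spearman rank correlation of 0.72 across the 170 regions, and of 0.72 across the 1042 regions elsewhere. The correlation is a description of these lists, as regions are not independent replicates and share their library and its depth. The median −log10 of the authors' value was 5.47 in replicate 1 and 5.62 in replicate 2, against 5.60 and 5.54 elsewhere. In 27 regions of II (15.9%) the −log10 value passed 10 in both replicates, and elsewhere in 14.5%. Both values were weaker than 0.0001 in 15 regions of II (8.82%), and elsewhere in 9.40%.

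**Figure D2:**
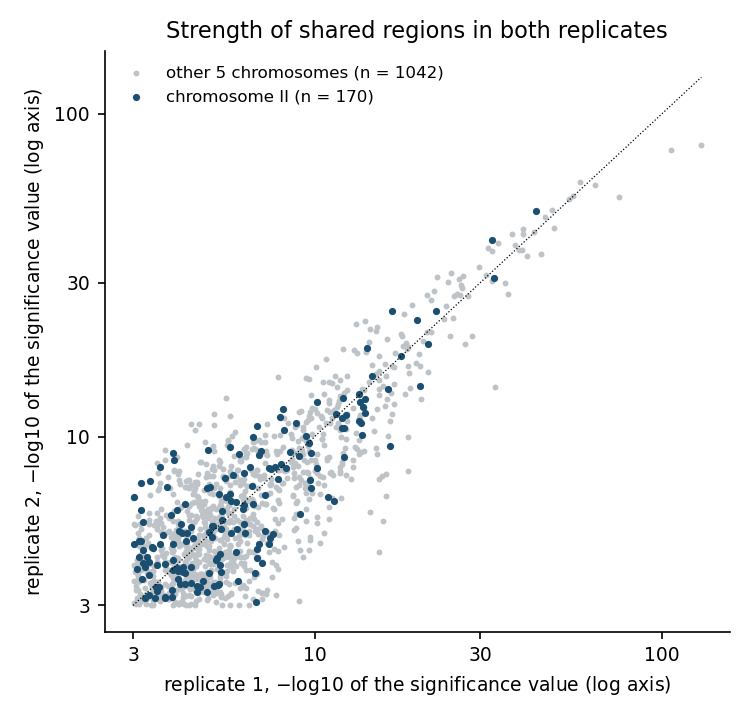
Strength of each shared region in replicate 1 (horizontal) and replicate 2 (vertical), as −log10 of the authors' significance value on log axes. Dark points are the 170 regions of chromosome II, grey points the 1042 regions of the other chromosomes, and the dotted line marks equal values. The points of II lie within the spread of the others, with a rank correlation of 0.72 in each set.

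The strongest regions of II came after the first 10 of the genome. When regions were ordered by summed rank over both replicates, the first 10 of II held places 11 to 90 of the 1212. Of these, 5 lay in the middle of 3 equal parts of the chromosome, 5 in the right part and 0 in the left part. Their median width was 780.5 bp, against 369.5 bp for the other regions of II. Among the first 100 regions of the genome 11 were on II, and among the first 50 there were 4 (8%), where II held 14.0% of all 1212. The other chromosomes had 13 (V) to 27 (X) of the first 100 and 5 (III) to 17 (X) of the first 50. II was not alone in falling below its share of all regions. Chromosome I held 24.9% of all 1212 regions, but 18 of the first 100 and 7 of the first 50. Among the first 100, III also fell slightly below its share, while IV, V and X lay above theirs. These differences were not tested.

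The region at chrII:10563003-10563860 (858 bp) came first. Its value was 3.46e-44 in replicate 1 and 7.6e-51 in replicate 2. It ranked 12 and 9 in the whole replicate lists. The second, at chrII:9602474-9603796 (1323 bp), had 3.75e-33 and 2.51e-41. In the third, at chrII:8561092-8561555 (464 bp), the values were 1.12e-33 and 8.71e-32. These 3 regions were also the first 3 of II within each replicate taken alone, with the last 2 in exchanged order in replicate 1.

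Next was the region at chrII:5543358-5544412 (1055 bp), with 4.96e-23 and 2.81e-25, ranks 49 and 47. Its replicate 2 peak ended 457 bp before its replicate 1 peak, the widest disagreement of an edge among the first 10. At chrII:11634701-11636100 (1400 bp) the values were 1.74e-20 and 9.74e-24. The region at chrII:14561622-14561905 was the narrowest of the first 10, at 284 bp, and had 6.69e-22 and 4.08e-20. Its starts differed by 6 bp between replicates and its ends by 3 bp, so a narrow site was placed alike in both.

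Of places 7 to 10, all but place 8 differed in rank by 35 or more. The region at chrII:11874593-11874952 (360 bp) ranked 83 in replicate 1 (1.75e-17) and 48 in replicate 2 (3.02e-25). At chrII:10168899-10169937 (1039 bp) the ranks were 78 and 81, with values of 1.75e-18 and 1.82e-18. The region at chrII:5844457-5845159 (703 bp) ranked 59 and 111, and that at chrII:6588837-6589267 (431 bp) 123 and 72. Replicate 2 gave the better rank in 6 of the first 10. The next 10 regions of II held places 97 to 145 of the genome, with −log10 values of 12.1 to 16.3 in replicate 1 and 11 to 15.4 in replicate 2.

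Over the 170 regions the 2 ranks, from lists of unequal length, differed by a median of 220 places and by at most 1664. That largest gap was at chrII:14598218-14598717, with 0.000941 (rank 2171) in replicate 1 and 3.11e-07 (rank 507) in replicate 2. The reverse case was the region at chrII:155966-156425, at 1.71e-07 (rank 457) in replicate 1 and 0.000835 (rank 1872) in replicate 2. These 2 regions were chosen after their values were seen.

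Shared regions were not evenly placed along II. The middle of 3 equal parts, from position 5074864 to 10149725, held 90 of the 170 (52.9%, 45.2 to 60.6%), or 17.7 per Mb. The right part held 57 (33.5%, 26.5 to 41.2%), or 11.2 per Mb, and the left part 23 (13.5%, 8.77 to 19.6%), or 4.53 per Mb. Even placement gives 33.3% in each part. On the other chromosomes the middle part held 47.4% (V), 47.0% (I), 40.7% (III), 38.3% (IV) and 31.7% (X), and the interval of II overlaps those of I, III, IV and V but not that of X. The left part of the other 5 held 25.2% to 33.7% of their regions, with intervals that all begin above the 19.6% at which that of II ends. No test was made of the placement, because neighbouring regions are not independent.

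Each list gave the same order of the parts on II. Replicate 1 had 57 peaks in the left, 134 in the middle and 99 in the right part, replicate 2 had 41, 148 and 83, and the series list 181, 398 and 259. The left part thus held 19.7% of replicate 1 peaks, 15.1% of replicate 2 peaks and 21.6% of series peaks. In replicate 1 the shared percent also differed between the parts, at 23 of 57 (40.4%, 27.6 to 54.2%) in the left and 90 of 134 (67.2%, 58.5 to 75%) in the middle, with intervals that do not overlap. The right part, at 57.6% (47.2 to 67.5%), overlapped both. In replicate 2 the shares were 56.1% (39.8 to 71.5%) in the left, 60.8% (52.5 to 68.7%) in the middle and 69.9% (58.8 to 79.5%) in the right part, with overlapping intervals. Peaks of the left part had weaker median values in both lists, 9.15e-05 against 2.94e-05 in the middle for replicate 1 and 7.34e-05 against 2.69e-05 for replicate 2. In the right part the median was 5.67e-05 for replicate 1, weaker than in the middle, and 9.02e-06 for replicate 2, stronger than in the middle. The part that strength plays in the share was not tested.

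The shared regions of the right part were fewer than those of the middle. Their median strength was higher, which did not hold for all replicate 1 peaks. In these shared regions the −log10 values had medians of 6.66 and 6.94 in replicates 1 and 2. The medians were 5.31 and 5.28 in the middle and 5.73 and 5.26 in the left part. Widths did not follow that order, with medians of 370 bp in the right, 405.5 bp in the middle and 355 bp in the left part. Strength and width were loosely related over the shared regions of II, with a rank correlation of 0.28 between strength and merged width. Strength here is the summed rank with its sign reversed, so that strong regions are high. The other chromosomes ranged from 0.37 (IV) to 0.60 (I). Within replicate 1 alone the rank correlation on II was 0.40, and within replicate 2 alone 0.48. These single-replicate values were computed for II only, so they cannot be set against the range of the other chromosomes. The region at chrII:9618995-9621408 (2414 bp), chosen after its values were seen, was wide in both replicates but weak in replicate 1 only. Its peaks were 1068 bp wide in replicate 1 and 2414 bp in replicate 2. It had 0.000116 (rank 1383) in replicate 1 and 3.62e-09 (rank 312) in replicate 2.

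In 10 equal parts of the length, the shared regions numbered 8, 4 and 6 in the first 3, then 21, 27, 26 and 31, and then 18, 17 and 12. Part 7, from position 9134754 to 10657212, held the most peaks of every layer. Peaks found in replicate 1 alone numbered 22 of 120 there, those in replicate 2 alone 23 of 101, and those in the series list alone 98 of 487. Part 8, next to it, held 7, 9 and 28. The longest stretch of II with no shared region ran for 1366214 bp, between positions 1320811 and 2687026. It held 7 replicate 1 peaks, 4 replicate 2 peaks and 45 series peaks. On the other chromosomes the longest such stretch ranged from 416830 bp on I to 1372348 bp on V.

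**Figure D3:**
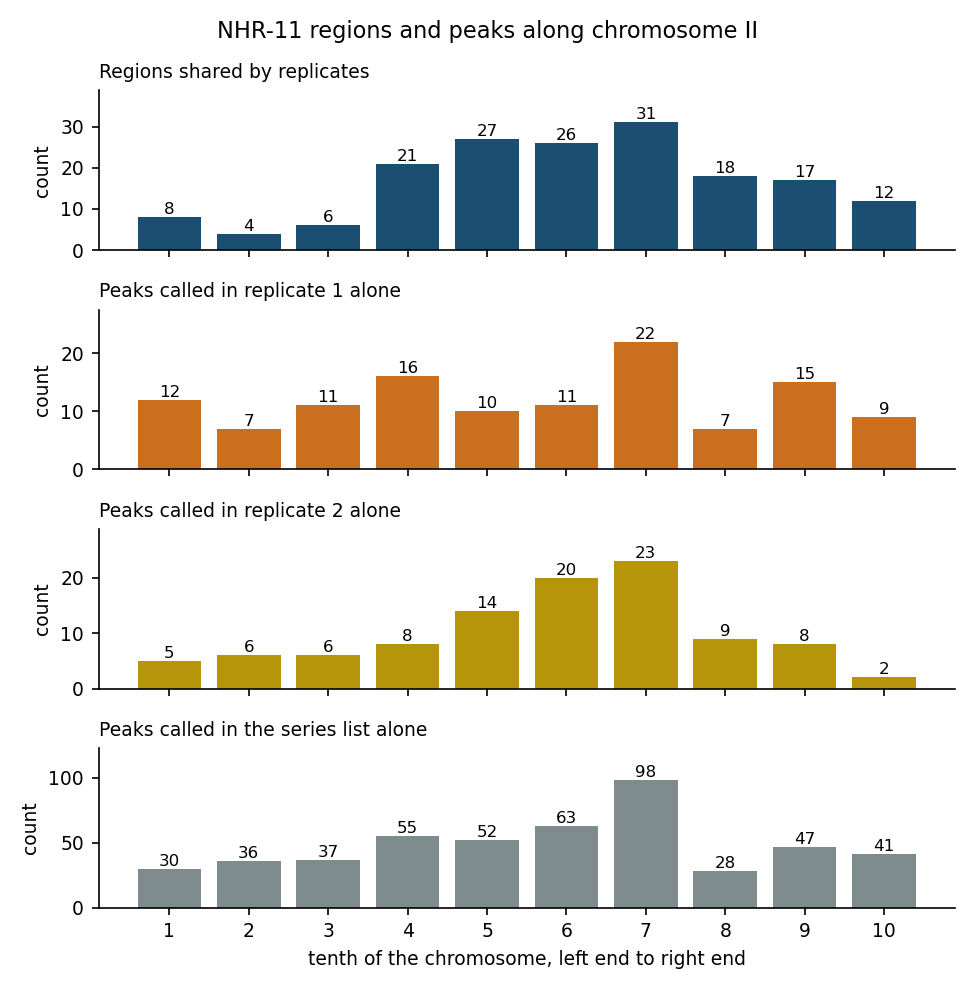
Number of shared regions, of peaks called in 1 replicate alone and of peaks called in the series list alone, in 10 equal parts of chromosome II from its left to its right end. Each panel has its own vertical scale. Shared regions numbered 4 to 8 in each of the first 3 parts and 31 in part 7, which held the most in all 4 panels.

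Chromosome II held 14.0% of all shared regions on 15.2% of the summed chromosome length, a density ratio of 0.923 (0.797 to 1.06) that did not pass the two-sided exact binomial test (adjusted over 6 chromosomes, p = 0.315). Without replicate 2, that is in replicate 1 peaks alone, the ratio was 0.868 and passed the same exact test (adjusted p = 0.0178), and without replicate 1 it was 0.923 (adjusted p = 0.232). The test treats regions as independently placed, which makes these p-values too small. In the series list the ratio was 0.778, where chromosome I held 26.4% of all peaks and IV 25.1%, and all of II, III, V and X had ratios under 1.

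Many shared regions of II lay close to another. The count within 10000 bp of a neighbour was 75 of 170 (44.1%, 36.5 to 51.9%), against 54.3% on I, 43.4% on III, 39.3% on IV, 34.4% on V and 35.6% on X. Joined at that distance they formed 123 groups, of which 95 were single regions, 16 held 2, 9 held 3 and 3 held 4 or more. Groups of 4 or more numbered 16 on I, 2 on III, 1 on IV, 2 on V and 6 on X. The largest group held 7 regions on II and also on IV. The groups depend on that distance, and regions a little farther apart fall into separate groups.

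The group with the most regions, 7, spanned 20500 bp at chrII:5326124-5346623. By summed rank its regions held places 60 to 169 among the 170 of II. The strongest, at chrII:5337893-5338733 (841 bp), had 2.39e-07 (rank 482) in replicate 1 and 9.4e-08 (rank 452) in replicate 2. The weakest, at chrII:5340770-5341025 (256 bp), had 0.000472 and 0.000601. Another 1 peak of replicate 1 and 4 of replicate 2 lay among them without a partner, the widest of 942 bp. Series peaks were numerous there, with 14 that covered 43.2% of the span, while the replicates covered 18.9% and 22.8%. One series peak, at chrII:5337849-5340129 (2281 bp), took in 2 peaks of each replicate and had 3.58e-38, rank 96 of the series list. Values are not comparable in size between lists.

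The second group, 5 regions in 27827 bp at chrII:10541940-10569766, held the first-ranked region of the chromosome and its 2 widest. The window of 30000 bp with the most bases under replicate 1 peaks, chrII:10539734-10569733, nearly coincides with it. Replicate 1 peaks covered 34.5% of that window, against 0.695% of the whole of II. In replicate 2, whose peaks did not choose the window, they covered 35.1%, against 0.691%. Such windows chosen in the same way covered 74.5% on IV, 28.9% on V, 17.3% on I, 14.1% on X and 11.4% on III in replicate 1.

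Within that window the replicates differed in how they divided the bound stretch. The widest region, chrII:10547665-10553832 (6168 bp), was 1 peak of 4546 bp in replicate 1 (4.87e-17) and 2 peaks of 2031 and 3022 bp in replicate 2 (7.47e-14 and 8.81e-15). It was the 1 shared region of II with more than a single peak in either replicate. To its left the region at chrII:10541940-10545532 was 2155 bp wide in replicate 1 (1.19e-14) and 3593 bp in replicate 2 (1.6e-12). The series list joined all 5 of these peaks into 1 peak of 12305 bp at chrII:10541960-10554264, its widest on any chromosome, with 5.27e-86. To the right lay a replicate 1 peak of 1706 bp at chrII:10558338-10560043 (5.38e-05) with no replicate 2 partner, then the first-ranked region of II. The edges of the wide peaks differed by 80 to 1358 bp between replicates. Those of the first-ranked region differed by 97 and 44 bp.

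**Figure D4:**
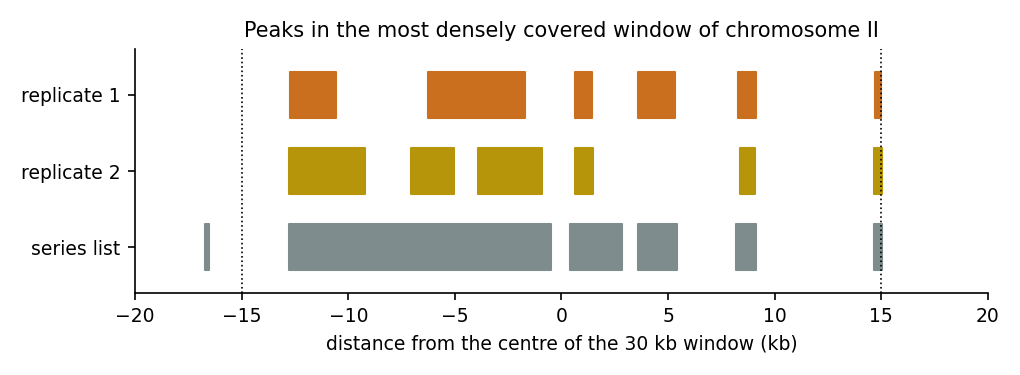
Peaks of the 3 lists in and around the 30000 bp window of chromosome II with the most bases under replicate 1 peaks (between the dotted lines), drawn by distance from its centre in kb. Bars show peak extent only, not strength. In both replicates several wide peaks fill the left part of the window, and the series list has a single peak of 12305 bp there.

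The last group, 4 regions in 8190 bp at chrII:14590528-14598717, lay near the right end and had no unshared peak among its members. All 4 ranked better in replicate 2. The region at chrII:14591582-14592002 had 3.63e-10 and 8.58e-11, and that at chrII:14592550-14592906 had 0.000121 and 1.34e-09. The remaining members had 3e-06 and 3.38e-08 at chrII:14590528-14590852, and 0.000941 and 3.11e-07 at chrII:14598218-14598717. This last is the region with the largest difference in rank. The sixth-ranked region of II, at chrII:14561622-14561905, lay outside this group to its left.

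Peaks called in 1 replicate alone were mostly narrow and weak. Among the 120 of replicate 1 the median width was 198.5 bp and the median value 0.00022, where shared replicate 1 peaks had 324 bp and 3.45e-06. For replicate 2 the 101 unshared peaks had medians of 207 bp and 0.000185, and the shared ones 346 bp and 1.99e-06. Peaks under 50 bp made up 14 of the 120 and 11 of the 101, and there were 0 and 2 among the shared peaks. Most stood away from any peak of the other replicate. The median distance to the nearest one was 13.8 kb in replicate 1 and 9.72 kb in replicate 2, and 6 and 4 peaks lay within 200 bp. Series peaks overlapped 105 of the 120 (87.5%, 80.2 to 92.8%) and 88 of the 101 (87.1%, 79.0 to 93.0%). Over all chromosomes these shares were 85.2% and 86.9%, near those of II. The series list is not independent of the replicates.

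The strongest of these were moderately strong in their own list. At chrII:8746238-8747498 (1261 bp) replicate 1 had a peak with 3.72e-10, rank 279, and the nearest replicate 2 peak lay 1051 bp away. Next in replicate 1 came chrII:10300332-10300611 (5.77e-08) and chrII:8795298-8795496 (1.24e-07). In replicate 2 the strongest unshared peak, at chrII:12102236-12102655 (420 bp), had 2.88e-09, rank 304, and the nearest replicate 1 peak was 59524 bp away. It was followed by chrII:7060210-7060664 (8.27e-08) and chrII:9002853-9003032 (3.16e-07). Each of these 6 overlapped a series peak, with values from 4.38e-15 to 1.73e-09. Absence from a list means only that no peak passed its limit there.

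The 838 series peaks on II fell into 173 that overlapped both replicates, 96 that overlapped replicate 1 only, 82 that overlapped replicate 2 only and 487 (58.1%, 54.7 to 61.5%) that overlapped neither. Over all chromosomes 63.1% overlapped neither. The series list, too, was divided by value into 4 parts of equal size. In its strongest part 3.24% of peaks on II (6 of 185, 1.20 to 6.93%) were in neither replicate, against 14.4% on I, 19.6% on IV, 2.22% on III, 6.02% on V and 2.34% on X. In the next part the share on II was 35.7% (28.8 to 43.0%), against 74.2% on I, 83.8% on IV, 28.7% on III, 35.7% on V and 36.4% on X. The third part gave 82.5% (76.8 to 87.3%) on II, above III (76.1%), V (74.6%) and X (72.3%) and below I (94.4%) and IV (97.7%). In the weakest part II had 94.0% (90.3 to 96.6%), and the others 90.6% to 99.8%. II thus lay within the range of III, V and X in all parts but the third, where its interval overlapped theirs. These differences between chromosomes were not tested.

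Series peaks found in neither replicate were the narrowest layer of II. Their median width was 188 bp (80 to 302 bp) and their median value 9.63e-05, against 414 bp and 2.6e-13 for those that overlapped both replicates. Peaks under 50 bp numbered 95 of the 487. Of the 487, 24 (4.93%) lay within 1000 bp of a shared region and 146 (30%) within 10000 bp. The same shares were 7.5% and 25% for peaks of replicate 1 alone, and 5.94% and 32.7% for those of replicate 2 alone. The 3 strongest lay at chrII:9992146-9993482 (1337 bp, 6.08e-12, rank 998), chrII:8720728-8721169 (442 bp, 4.82e-11) and chrII:10165619-10166623 (1005 bp, 4.29e-10). The last of these ended 2275 bp before the eighth-ranked shared region of II.

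**Figure D5:**
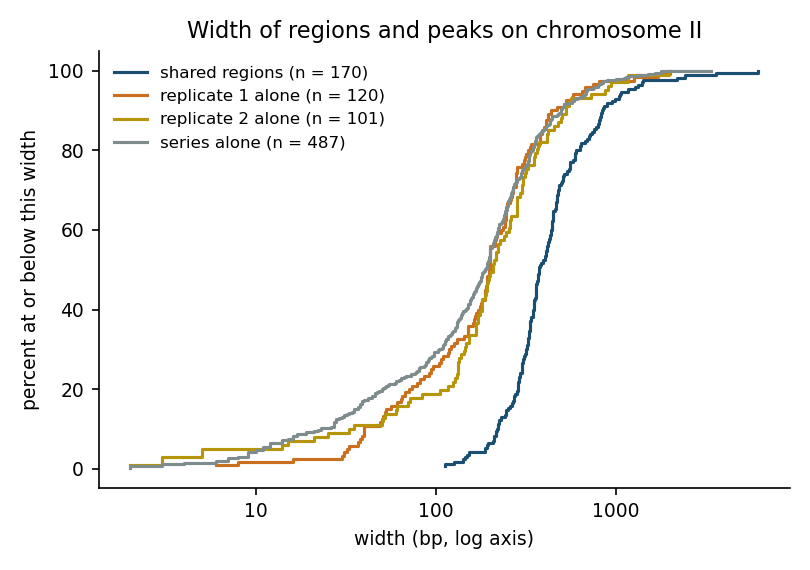
Cumulative percent of regions or peaks (vertical axis) at or below each width (horizontal, bp, log axis) for the 4 layers of chromosome II. Shared regions lie to the right, with a median of 374.5 bp, and the 3 one-list layers lie together, with medians of 188 to 207 bp. Shared regions are merged from 2 peaks, which widens them by construction.

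Every shared region of II overlapped exactly 1 series peak, and in 133 of 170 cases that peak spanned the whole region. The order of strength was not the same in that list. The first-ranked region of the replicates had a series value of 1.28e-49, behind 4 other series peaks on II. Those were the 12305 bp peak (5.27e-86) and the peaks at the next 3 regions in the order (2.16e-71, 2.4e-59 and 1.18e-54). Across II, 7 series peaks held more than 1 peak of a replicate, and 3 of them were in the groups of 7 and 5 regions.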

How the data were processed

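ChIP-seq of L3 worms (2 ChIP, 2 input libraries) was represented by 3 deposited peak lists, 1 per ChIP replicate and 1 for the series. Per the file headers the build is WS220 of WormBase, and each record of the files names PeakSeq. Each deposited peak has a p-value or q-value, ending just under 0.001. The aligner, the control and how the authors made the series list are not given in the sources used here, and the inputs were not analysed here.

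Ranks run over each whole list. Replicate peaks that overlap by 1 bp or more were merged, and the strongest peak of each replicate gave a region's value. A chromosome's length is the highest coordinate in the lists. Density was tested with a two-sided exact binomial test over all 1212 regions, Benjamini-Hochberg adjusted over 6 chromosomes. Intervals are Clopper-Pearson.

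Regions were named by rule: the first 10 by summed rank, groups of 4 or more with gaps of at most 10000 bp, the 3 strongest peaks of each one-list layer, and the densest 30000 bp window. The members and lists were chosen with earlier results of these data known. The overlap, density and rank correlation procedures were tested on simulated lists. Those lists placed peaks independently at random and gave shared peaks identical edges and values, so clustered peaks and differing edges were not covered. Python 3.11.15, numpy 2.4.6, pandas 2.3.3, scipy 1.17.1 and matplotlib 3.10.9 were used.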

Additional observations from a re-analysis of the deposited data

How the results depend on the processing

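Of 40 alternative values, 24 stayed on the same side of the test, within the interval of the reported value, within 0.1 of a rank correlation or within 1.5 times a count. An overlap of at least 50% of both peaks lowered the shared percent to 52.1% in replicate 1 and 55.5% in replicate 2, since fewer pairs qualify. The better-scoring 50% of each list gave 68.9% for replicate 1 and left 91 shared regions, while a limit on the value made 10 times stricter left 106, as fewer peaks entered. The stricter limit lowered the share of regions within 10000 bp of another to 32.1%. Applied to the series list alone, with the replicate lists unchanged, it lowered the share of series peaks in neither replicate to 42.6%. The better-scoring 50% of the series list put this share at 19.5%, and leaving out series peaks under 50 bp at 53.3%, again with unchanged replicate lists. With gaps of 5000 and 20000 bp the share of close regions was 28.8% and 57.6%, and with 1 replicate alone 47.2 to 54.4%. With 1 replicate alone the density ratio was 0.868 to 0.923 and the middle part held 46.2 to 54.4%. In the series list that ratio was 0.778, with an adjusted p of 3.21e-16 by the exact binomial test. The rank correlation of strength and width rose from 0.28 to between 0.40 and 0.48 within single replicates, where width is not merged, and was 0.28 without the 3 groups of 4 or more regions. Leaving out short peaks and the alternatives for that rank correlation were chosen with the data in view. No paired analysis was possible because the 3 lists were those of the ChIP replicates and the series, with no list of an input. No sample groups were tested against each other. With depth unknown, a site missing from a list may still be bound.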
